A study of Homo sapiens with 12 samples.

Results

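The 46 genes described here build the machinery that copies DNA: they license origins, unwind and copy the helix, seal the new strands and supply nucleotides. They were chosen by name from the 19038 transcripts of the RNA table, and all 46 were found, each on 1 transcript. The samples were tumours of 22Rv1, a human prostate cancer cell line, grown under the skin of male NSG mice that were 6 to 8 weeks old at injection. Mice with tumours of 70 to 100 mm3 received zotatifin at 0.3 mg/kg in 5% dextrose, or 5% dextrose alone as vehicle, into the peritoneum, and tumours were taken after 6 h. Ribosome footprints, gel-cut between 24 and 34 nt from the monosome fraction, and total RNA from the same lysates were sequenced, which gave 4 groups of 3 libraries: zotatifin footprints, vehicle footprints, zotatifin RNA and vehicle RNA. Groups follow the titles, because the treatment field contradicts the title in 6 of the 12 samples.

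Origins are licensed in G1 phase, when the origin recognition complex (ORC), CDC6 and CDT1 load the MCM2 to MCM7 ring onto DNA, while geminin (GMNN) binds CDT1 and stops a further round. In S phase the kinase CDC7, with its activator DBF4, and CDC45 and the GINS complex turn the ring into a moving helicase, behind which DNA polymerases alpha, delta and epsilon copy the strands. Zotatifin clamps eIF4A, an RNA helicase of translation initiation that opens leaders for the scanning ribosome, onto purine-rich stretches.

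Footprint libraries held 838135 to 1540867 counts with zotatifin and 1592316 to 2013968 with vehicle, and RNA libraries held 6594884 to 8153674 and 5761921 to 7121802 (n = 3 each). Levels are counts per library size scaled by TMM (CPM), so they are relative to each library and would hide a shift common to every transcript. The samples are a single cell line plus the cells an NSG host still has, among them fibroblasts, vessels and myeloid cells, and whether mouse reads were removed is not given in the sources used here. All 10 prostate cancer markers were detected, with a summed RNA level of 5020 to 5460 CPM with zotatifin and 4310 to 5220 CPM with vehicle. The 10 fibroblast markers summed to 69.7 to 131 CPM of RNA with zotatifin and 216 to 364 CPM with vehicle. Of these sums, COL1A1 gave 30.95 to 64.7 CPM and 98.2 to 150.7 CPM. Only DCN and LUM had a higher mean with zotatifin (1.18 against 0.86 CPM and 2.86 against 1.98 CPM). The 7 myeloid markers summed to 10.6 to 19.8 CPM with zotatifin and 15.9 to 48.3 CPM with vehicle, with TYROBP at 0 in the RNA libraries of both treatments. The 5 endothelial markers summed to 3.04 to 5.76 CPM of RNA with zotatifin and 5.42 to 12.8 CPM with vehicle. In such bulk samples, fewer cells of a type and less RNA per cell cannot be told apart, and the part of these differences in the results was not tested. The 8 markers of cycling cells in G2 and M phase summed to 1240 to 1530 CPM of RNA with zotatifin and 1350 to 1450 CPM with vehicle, so these ranges overlapped.

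Few replication genes were called, and not in one direction. Footprints rose in CDT1 and POLD1 and fell in GINS1, while RNA rose in PRIMPOL alone. Translational efficiency (TE), the change of footprints relative to RNA, fell in PRIMPOL and GINS1. In these main models no member's RNA fell and no member's TE rose. At an unadjusted p under 0.05 these counts were 1 and 3, and in DESeq2 0, with no adjusted TE p for 4 members. A second TE model, described below, took the tumour as a block and called 3 rises and 4 falls. With that block, 3.62% of all genes tested rose and 5.05% fell. All 46 genes passed the count filter in each comparison. A call is an adjusted p under 0.05 over all genes tested. Among all 9544 genes tested in footprints, 7.14% were called, with 3.22% rising and 3.92% falling. In RNA, 1.72% of 13118 were called (0.808% rose and 0.907% fell), and in TE, 1.69% of 9454 (0.476% rose and 1.22% fell). The counts of 2 rises and 1 fall in footprints and of 1 rise in RNA are near these shares. The median log2 change over the 46 genes was −0.01 in footprints, 0.13 in RNA and −0.12 in TE, against 0.0030, −0.0023 and 0.02 over all genes tested.

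**Figure D1:**
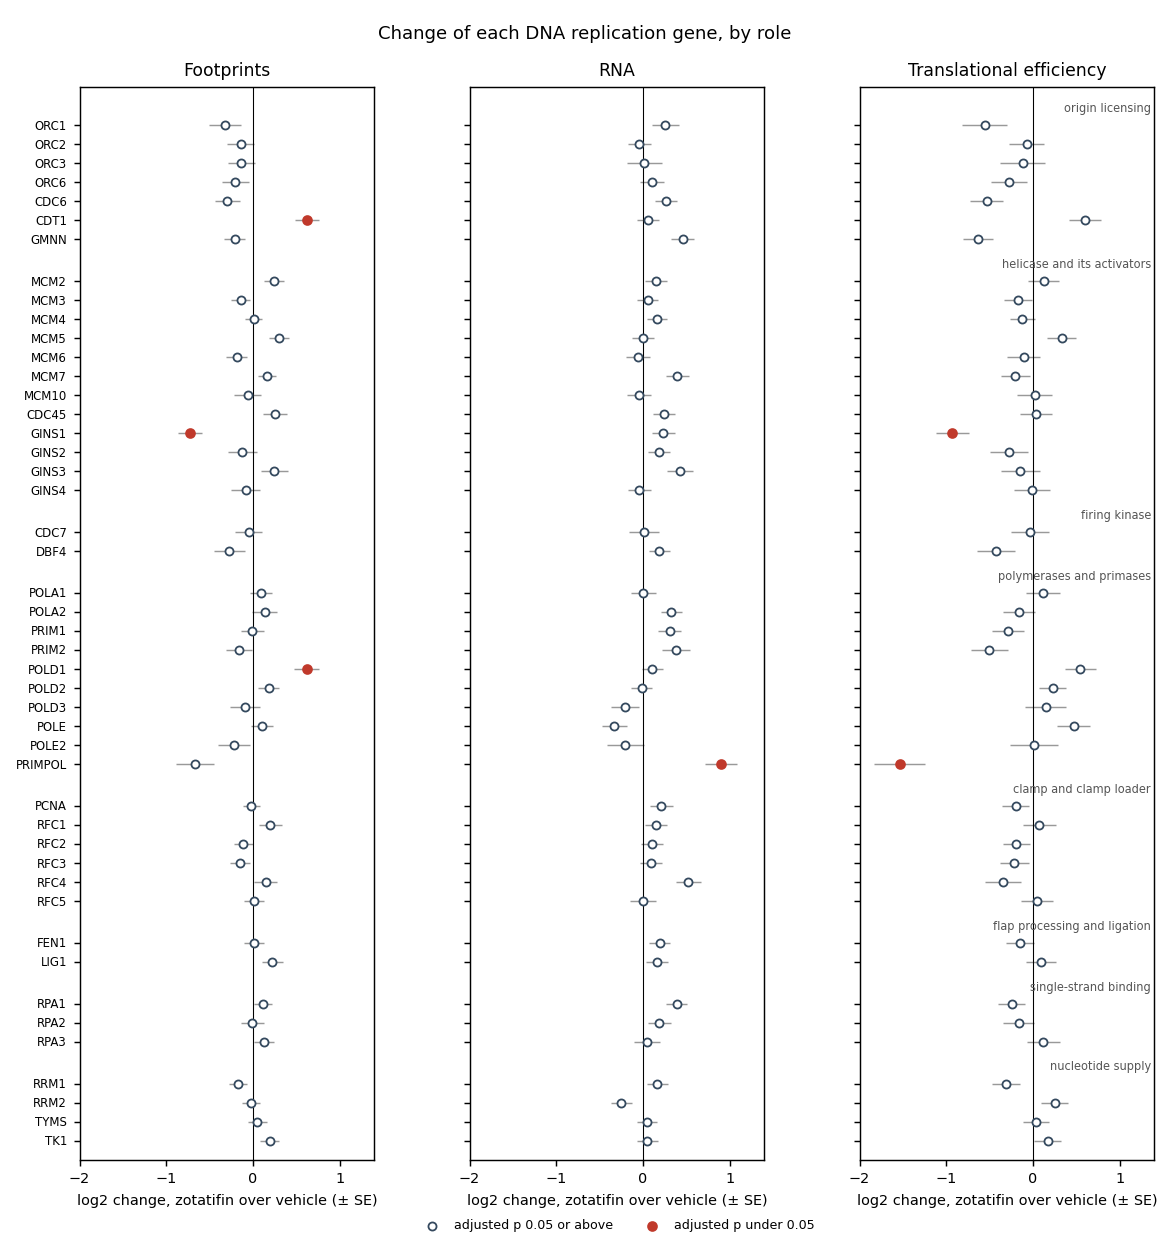
Log2 change of zotatifin over vehicle with its standard error (x axis) for each of the 46 genes (y axis), in footprints, RNA and translational efficiency. Filled red points passed an adjusted p of 0.05: CDT1, POLD1 and GINS1 in footprints, PRIMPOL in RNA, and GINS1 and PRIMPOL in translational efficiency.

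PRIMPOL, a primase and polymerase that restarts synthesis ahead of stalled forks, had more RNA and fewer footprints after zotatifin (transcript ENST00000314970, chromosome 4, 184649738 to 184694952, GRCh38.p14). Its RNA stood at 26.6, 29.1 and 26.3 CPM with zotatifin and at 18.2, 12.1 and 13.8 CPM with vehicle. Its footprints stood at 20.8, 14.7 and 24.6 CPM with zotatifin and at 29.5, 39.4 and 30.5 CPM with vehicle. The treatments did not overlap in either assay, and the changes ran in opposite directions. RNA rose by a log2 change of 0.90 ± 0.18 (SE, adjusted p = 0.0178), a call lost without zotatifin library 1 or 3 or vehicle library 3 (adjusted p up to 0.0906). The footprint change was −0.66 ± 0.22 and missed the threshold (adjusted p = 0.0615), with 12 to 38 counts per library with zotatifin and 48 to 71 with vehicle. TE fell by 1.54 on the log2 scale (SE 0.29, adjusted p = 0.00428; DESeq2 gave no adjusted p), and this call held without any 1 of the 6 tumours (adjusted p up to 0.0483). Footprint CPM over RNA CPM, as a log2 ratio, was −0.35, −0.98 and −0.10 in the zotatifin tumours and 0.70, 1.70 and 1.15 in the vehicle tumours. In the authors' deposited tables, the log2 RNA change of PRIMPOL was 0.90 (adjusted p = 0.00567) and the TE change −1.52 (FDR 6.47e-10).

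GINS1, a subunit of the GINS complex that holds CDC45 and the MCM ring together, had fewer footprints and no RNA call (ENST00000262460, chromosome 20, 25407673 to 25448563). Footprints were 54.7, 57.6 and 57.6 CPM in the zotatifin libraries and 90.9, 97.1 and 92.8 CPM in the vehicle libraries. The groups did not overlap (means 56.6 and 93.6 CPM, SDs 1.69 and 3.19, n = 3 each). Counts per library were 47 to 89 with zotatifin and 146 to 185 with vehicle, so SDs this small understate the counting error. Footprints fell by 0.72 on the log2 scale (SE 0.14, adjusted p = 0.00168), also without any 1 library (adjusted p up to 0.0161). RNA stood at 66.4, 65.4 and 60.2 CPM with zotatifin and 60.9, 53.9 and 48.8 CPM with vehicle, so the treatments overlapped (0.23 ± 0.13, adjusted p = 0.357). TE fell by 0.93 (SE 0.19, adjusted p = 0.00711), a call lost without zotatifin tumour 1 (adjusted p = 0.0702) or vehicle tumour 3 (0.0537).

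The partners of GINS1 in the same complex gave no call. Footprint changes were −0.12 ± 0.17 for GINS2, 0.25 ± 0.16 for GINS3 and −0.09 ± 0.16 for GINS4. GINS3 had the highest RNA change of the helicase group (0.42 ± 0.15, adjusted p = 0.136), and it was called without vehicle library 2 (0.64, adjusted p = 0.02). Whether GINS1 differed from its partners was not tested.

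CDT1, which brings the MCM ring to origins, gained footprints with no RNA call (ENST00000301019, chromosome 16, 88803789 to 88809258). Footprints were 103, 107 and 126 CPM with zotatifin and 63.9, 82.2 and 74.3 CPM with vehicle. Every zotatifin library was above every vehicle library, and footprints rose by 0.62 ± 0.14 (adjusted p = 0.00566). That call was lost without vehicle library 1, the lowest of the 6 (adjusted p = 0.0792). RNA was 194.9, 209.5 and 226.3 CPM with zotatifin and 196.4, 234.6 and 177.3 CPM with vehicle, which overlapped (0.05 ± 0.13, adjusted p = 0.867). The TE change of 0.60 ± 0.18 missed the threshold (adjusted p = 0.0901).

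GMNN, the inhibitor of CDT1, had footprint and TE changes of the opposite sign, though none passed the threshold in the main models (ENST00000230056, chromosome 6, 24774937 to 24786099). Its RNA was 63.5, 78.3 and 66.7 CPM with zotatifin and 51.9, 46.8 and 53.0 CPM with vehicle (0.46 ± 0.13, adjusted p = 0.0751). Its footprints were 124, 123 and 144 CPM with zotatifin and 149, 158 and 149 CPM with vehicle (−0.21 ± 0.12, adjusted p = 0.297). Neither assay showed an overlap between the treatments. The TE change was −0.64 ± 0.17 and lay just outside the threshold (adjusted p = 0.0520). TE of GMNN was called as falling with the tumour as a block (adjusted p = 0.00416) and in DESeq2. It also fell in the authors' deposited TE estimates (log2 −0.72, FDR 1.16e-09).

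POLD1, the catalytic subunit of polymerase delta, gained footprints (ENST00000595904, chromosome 19, 50384323 to 50418018). They stood at 93.7, 85.8 and 80.9 CPM with zotatifin and at 55.5, 61.6 and 51.5 CPM with vehicle, with no overlap. Footprints rose by 0.62 ± 0.14 (adjusted p = 0.00774), a call that ended when zotatifin library 1 (adjusted p = 0.0507) or vehicle library 1 (0.0594) was left out. RNA was 108, 96.4 and 104 CPM with zotatifin and 93.0, 102 and 91.4 CPM with vehicle (0.11 ± 0.12, adjusted p = 0.670), and the TE change was 0.54 ± 0.18 (adjusted p = 0.116). The other delta subunits gave no call, with footprint changes of 0.18 ± 0.12 for POLD2 and −0.09 ± 0.17 for POLD3.

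**Figure D2:**
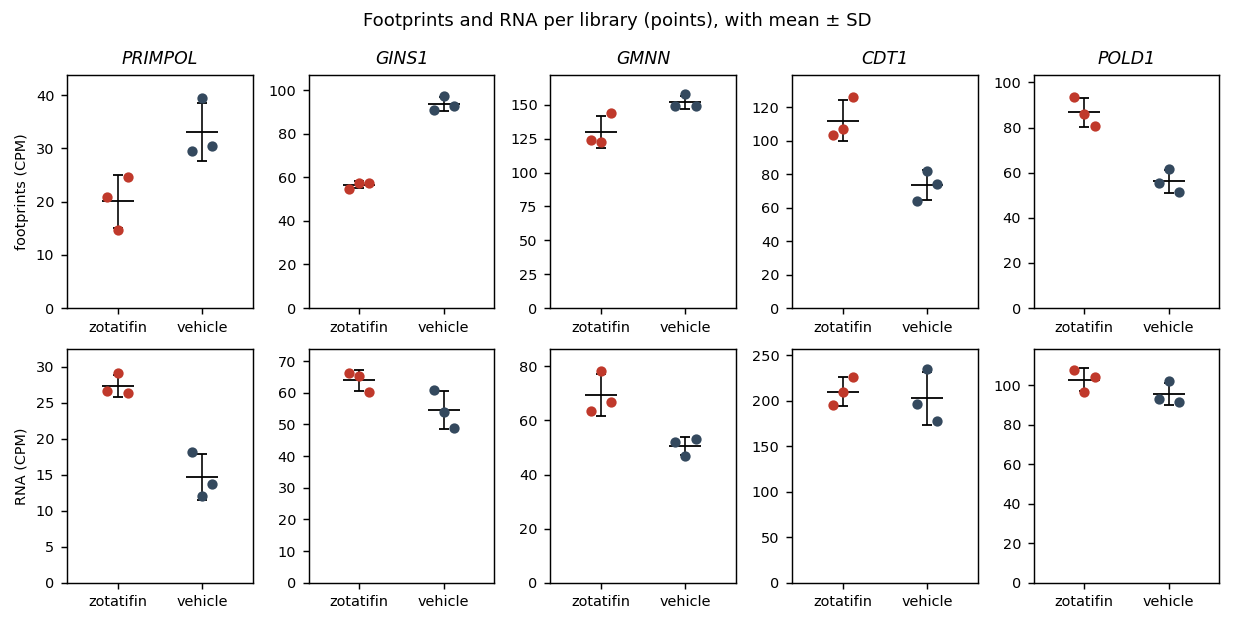
Footprints (top) and RNA (bottom) of 5 genes in TMM-scaled CPM (y axes, starting at 0), with zotatifin left of vehicle. Points are libraries, and bars are the mean ± SD of 3. PRIMPOL and GMNN stand higher in RNA and lower in footprints with zotatifin, GINS1 lower in footprints, and CDT1 and POLD1 higher in footprints.

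Because footprints and RNA of a tumour came from the same lysate, a second TE model took the tumour as a block. With the block, TE rose in CDT1, POLD1 and POLE and fell in PRIMPOL, GINS1, GMNN and CDC6, that is 3 rises and 4 falls among the 46 genes. Over all 9454 genes, 8.66% were called with the block, 3.62% rising and 5.05% falling. GMNN changed by −0.63 ± 0.15 (adjusted p = 0.00416), CDT1 by 0.60 ± 0.14 (adjusted p = 0.00414) and POLD1 by 0.54 ± 0.16 (adjusted p = 0.0237). CDC6, the ATPase that loads the MCM ring with CDT1, changed by −0.52 (adjusted p = 0.0187), and POLE, the catalytic subunit of polymerase epsilon, by 0.46 (adjusted p = 0.0358). These 5 genes were not called without the block. In the authors' deposited table of footprints relative to RNA, 6 of the 46 genes rose and 11 fell at an FDR under 0.05, where 8.09% of 11446 genes rose and 10.2% fell. Those that rose there were CDT1, MCM5, POLD1, POLE, RRM2 and TK1. Those that fell were ORC1, CDC6, GMNN, MCM7, GINS1, PRIM2, PRIMPOL, PCNA, FEN1, RPA1 and RRM1.

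Among the origin licensing genes, only CDT1 had footprint and TE changes above 0. Whether CDT1 differed from the others was not tested. Of the 7 genes, 6 had a footprint change below 0, with a median of −0.20, and 6 had a TE change below 0, with a median of −0.28. In RNA 6 of the 7 were above 0, with a median of 0.10. Among them were CDC6 (footprints −0.30, adjusted p = 0.214; RNA 0.26, adjusted p = 0.259), and ORC1, the ATPase subunit of ORC (footprints −0.32, adjusted p = 0.328; RNA 0.26, adjusted p = 0.410). Footprints of CDC6 were 108, 87.1 and 104 CPM with zotatifin and 103, 150 and 118 CPM with vehicle. Those of ORC1 were 39.9, 28.2 and 39.5 CPM with zotatifin and 38.8, 42.7 and 57.8 CPM with vehicle. Both pairs of groups overlapped. The ORC subunits ORC2, ORC3 and ORC6 had footprint changes of −0.14, −0.13 and −0.20, none of them called. The median deviation of the group from the vehicle mean was −0.10, −0.43 and −0.08 in the 3 zotatifin footprint libraries. The lowest belonged to zotatifin library 2, which had the fewest counts. The footprint median of the group was −0.08 without that library and −0.13 without vehicle library 1. Its TE median was −0.12 without zotatifin tumour 2, −0.15 without vehicle tumour 1, −0.44 without vehicle tumour 2 and −0.49 without zotatifin tumour 1.

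The helicase group had a footprint median near 0 and no call beside GINS1. The 12 genes had a footprint median of −0.03, an RNA median of 0.16 and a TE median of −0.11. Within the MCM2 to MCM7 ring, footprint changes ran from −0.19 ± 0.12 (MCM6) to 0.30 ± 0.11 (MCM5). MCM5 was the member nearest to the threshold after PRIMPOL in footprints (adjusted p = 0.112), with 321, 312 and 310 CPM in zotatifin libraries and 213, 261 and 296 CPM in vehicle libraries, which did not overlap. MCM2 stood at 392.2, 291.8 and 371.3 CPM of footprints with zotatifin and 269, 300 and 330 CPM with vehicle, which did (0.24 ± 0.12, adjusted p = 0.205). MCM7 RNA was 599, 596 and 594 CPM with zotatifin and 374, 490 and 497 CPM with vehicle (0.40 ± 0.13, adjusted p = 0.113), with no overlap. In the authors' deposited RNA table MCM7 was called (0.40, adjusted p = 0.0450), and with PRIMPOL it made 2 rises and 0 falls among the 46. CDC45 (0.25 ± 0.14) and MCM10, which helps start the helicase (−0.06 ± 0.15), gave no footprint call. In the firing kinase, the footprint change was −0.05 ± 0.15 for CDC7 and −0.27 ± 0.18 for DBF4 (adjusted p = 0.893 and 0.393).

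The polymerase and primase group held calls in all 3 comparisons, in PRIMPOL and POLD1. Its 10 genes had a footprint median of 0.04, an RNA median of 0.06 and a TE median of 0.07, while TE changes spanned −1.54 (PRIMPOL) to 0.54 (POLD1). All 4 subunits of polymerase alpha and its primase had RNA changes above 0, at 0.0047 (POLA1), 0.33 (POLA2), 0.31 (PRIM1) and 0.38 (PRIM2), none of them called. PRIM2, the large primase subunit, had RNA of 28.1, 31.5 and 33.2 CPM with zotatifin and 21.2, 26.7 and 23.4 CPM with vehicle (adjusted p = 0.211). Its footprints overlapped, at 78.1, 57.6 and 64.0 CPM with zotatifin and 73.2, 83.3 and 67.4 CPM with vehicle (TE −0.51 ± 0.21, adjusted p = 0.243). POLE had the lowest RNA change of the 46 genes (−0.33 ± 0.14, adjusted p = 0.211), with 217, 145 and 211 CPM in zotatifin libraries and 261, 237 and 224 CPM in vehicle libraries. Its footprints, at 124, 118 and 111 CPM with zotatifin and 104, 120 and 103 CPM with vehicle, overlapped (0.11 ± 0.13).

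Per tumour, the TE medians of licensing genes were −0.15, −0.77 and −0.37 with zotatifin and 0.04, −0.05 and −0.06 with vehicle. Those of helicase genes were −0.15, −0.13 and −0.17 with zotatifin and 0.04, −0.01 and 0.05 with vehicle. Those of polymerase genes were 0.02, −0.09 and 0.05 with zotatifin and −0.0083, 0.0089 and 0.02 with vehicle. The treatments thus lay apart for licensing and helicase genes and overlapped for polymerase genes. Each level was taken relative to the gene's vehicle mean, which ties the vehicle medians to that mean and favours separation in advance. Medians over all the replication genes also lay apart, at −0.11, −0.24 and −0.12 with zotatifin and 0.05, −0.04 and −0.0019 with vehicle. Single-strand binding and firing kinase genes lay apart too, while clamp, flap and nucleotide supply genes overlapped. The separation is therefore not particular to licensing and helicase genes. No difference between role groups was tested, since the members of a group are not replicates.

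**Figure D3:**
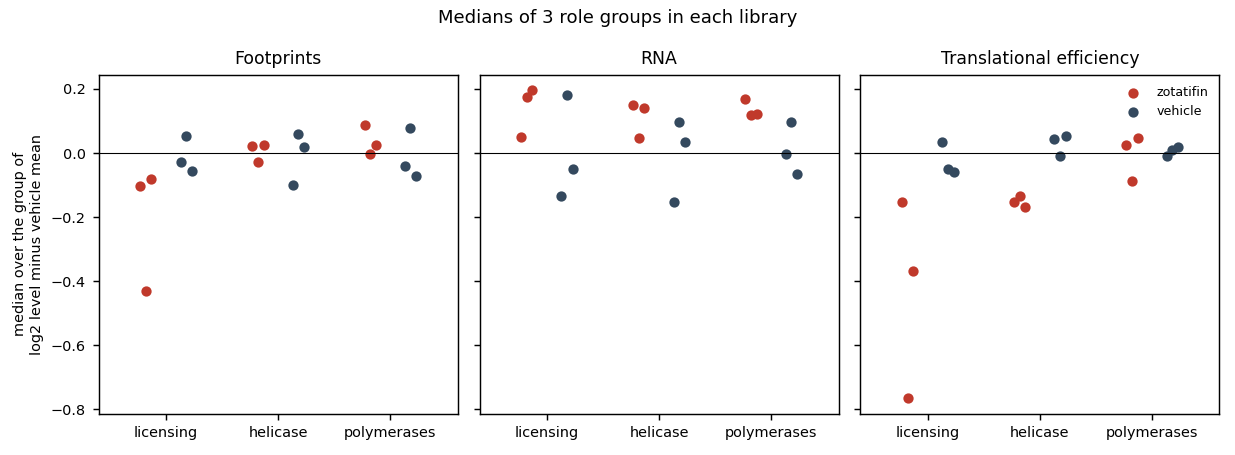
Median over a role group of the log2 level of each gene minus its vehicle mean (y axis), for licensing, helicase and polymerase genes, in footprints, RNA and translational efficiency. Each point is a library or tumour, zotatifin left of vehicle. In translational efficiency all 3 zotatifin points of the licensing genes lie at −0.15 or below.

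Among the other roles no gene was called. PCNA, the sliding clamp, had footprints of 807, 736 and 749 CPM with zotatifin and 752, 809 and 759 CPM with vehicle, which overlapped (−0.02 ± 0.10, adjusted p = 0.942). RFC4, a subunit of the clamp loader, had the second highest RNA change after PRIMPOL, at 63.4, 96.3 and 74.6 CPM with zotatifin and 53.5, 56.8 and 52.6 CPM with vehicle (0.52 ± 0.14, adjusted p = 0.0631). Its groups did not overlap in RNA. Footprint changes of the 6 clamp and loader genes ran from −0.15 (RFC3) to 0.20 (RFC1). RPA1, the large subunit of the single-strand binding complex, had RNA of 144, 136 and 148 CPM with zotatifin and 96.7, 114 and 116 CPM with vehicle (0.39 ± 0.12, adjusted p = 0.0973). RPA2 and RPA3 had footprint changes of −0.0062 and 0.12. The flap nuclease FEN1 (0.0087) and the ligase LIG1 (0.22 ± 0.12) gave no footprint call either.

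Nucleotide supply showed no call, and the subunits of ribonucleotide reductase differed in sign. RRM1, the large subunit, had a TE change of −0.31 ± 0.17 (adjusted p = 0.379), and RRM2, the small subunit, one of 0.25 ± 0.16 (adjusted p = 0.461). RNA of RRM2 stood at 163, 137 and 151 CPM with zotatifin and 173, 199 and 165 CPM with vehicle (−0.25 ± 0.12, adjusted p = 0.284). Footprints of the thymidylate-producing enzymes TYMS and TK1 differed by 0.05 ± 0.11 and 0.19 ± 0.11, and neither was called.

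RNA of the replication genes was slightly higher with zotatifin, though single genes were hardly called. Of the 46 genes, 36 (78.3%) had an RNA change above 0, against 49.7% of all genes tested. In 14 (30.4%) all zotatifin libraries were above all vehicle libraries, where 12.3% of all genes were, and in 2 (4.35%) they were all below, where 10.9% of all genes were. The median deviation from the vehicle mean was 0.14, 0.14 and 0.17 in the zotatifin libraries and −0.09, 0.10 and −0.04 in the vehicle libraries. The median RNA change was 0.06 without vehicle library 1 and 0.20 without vehicle library 2. In the same comparison the 6 tested fibroblast markers had a median RNA change of −1.52, with 1 of them (LUM) above 0. The part of this in the RNA values was not tested. In footprints 6 genes (13.0%) were apart in each direction, near the 12.9% and 13.5% of all genes, and in TE 6 (13.0%) were above and 15 (32.6%) below, against 10.7% and 15.6%.

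The promoters of the genes with the largest RNA changes are shown for their sequence, beside that of MCM6, the helicase gene with the lowest RNA change (−0.06 ± 0.14). Of the 46 genes, 40 had a RefSeq promoter entry. Each line gives the 150 bases before the start on the gene's strand, 5′ to 3′ (GRCh38.p14), with capitals for matches on either strand to the E2F motif TTTNNCGC (each N being C or G), to CCAAT or to the cell cycle element TTTGAA.
PRIMPOL, chr4:184649588-184649737, plus strand: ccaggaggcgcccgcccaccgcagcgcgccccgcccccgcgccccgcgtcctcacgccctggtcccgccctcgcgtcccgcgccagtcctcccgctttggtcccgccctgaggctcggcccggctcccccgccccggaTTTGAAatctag
RFC4, chr3:186806483-186806632, minus strand: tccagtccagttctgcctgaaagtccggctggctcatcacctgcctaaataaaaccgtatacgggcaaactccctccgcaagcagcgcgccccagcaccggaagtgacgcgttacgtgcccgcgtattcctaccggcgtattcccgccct
GMNN, chr6:24774787-24774936, plus strand: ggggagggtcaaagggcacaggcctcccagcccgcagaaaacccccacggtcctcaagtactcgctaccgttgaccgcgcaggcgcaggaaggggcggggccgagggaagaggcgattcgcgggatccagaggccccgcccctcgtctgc
MCM6, chr2:135876444-135876593, minus strand: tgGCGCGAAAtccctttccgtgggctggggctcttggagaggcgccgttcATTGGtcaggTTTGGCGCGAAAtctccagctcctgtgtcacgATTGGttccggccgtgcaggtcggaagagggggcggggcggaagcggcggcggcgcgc
The MCM6 stretch holds 3 E2F matches, of which the later pair overlap on opposite strands, and 2 CCAAT matches read as ATTGG, and the stretches of RFC4 and GMNN hold none of the 3 motifs. Within 250 bases before the start, the E2F motif was found in 13 of the 40 members (32.5%), against 2.79% of 27305 promoters. CCAAT was found in 22 (55.0%) against 33.0%, and TTTGAA in 2 (5.00%), PRIMPOL and RRM1, against 13.6%. These 27305 promoters were not limited to the 13118 genes tested in RNA, whereas every member was tested, so the sets compared are unlike. The 13 members with the E2F motif had a median RNA change of 0.06 and the 27 without it 0.17, with 11 and 22 genes above 0.

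Purine runs at the very start of the leader were looked at because of the purine preference of zotatifin. In the first 50 bases after the start, the longest unbroken run of A and G had 5 bases in PRIMPOL (gagag), GINS1 (ggagg) and POLD1 (gggag), and 4 in GMNN and CDT1 (ggag in both). Other members had longer runs, up to 12 bases in FEN1 and 9 in MCM6 and RFC2. None of these was called in TE here, while FEN1 fell in the authors' deposited TE estimates (log2 −0.27, FDR 0.0311). Whether run length and TE are related was not tested. The median over 27305 promoters was 5, as it was over the 25 members with a lower TE and the 15 with a higher TE. Longer leaders were not used here.

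With vehicle, the 46 genes spanned a wide range of footprints per RNA. The log2 of footprint CPM over RNA CPM, in which gene length cancels only if both assays were counted over the same region, had a median of 0.46 over the members and −0.19 over 9452 genes. The lowest members were CDT1 (−0.91 ± 0.07 with zotatifin and −1.46 ± 0.19 with vehicle), POLD2 (−1.05 ± 0.02 and −1.26 ± 0.14), POLE (−0.68 ± 0.33 and −1.14 ± 0.17) and POLD1 (−0.24 ± 0.10 and −0.77 ± 0.05, SD, n = 3 each). The highest was RPA3, the smallest subunit of the single-strand binding complex, with a vehicle level at the 98.3th percentile of these genes. GMNN (92.7th) and CDT1 (17.7th) stood near opposite ends. PRIMPOL was at −0.48 ± 0.46 with zotatifin and at 1.18 ± 0.50 with vehicle (86.3th percentile).

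**Figure D4:**
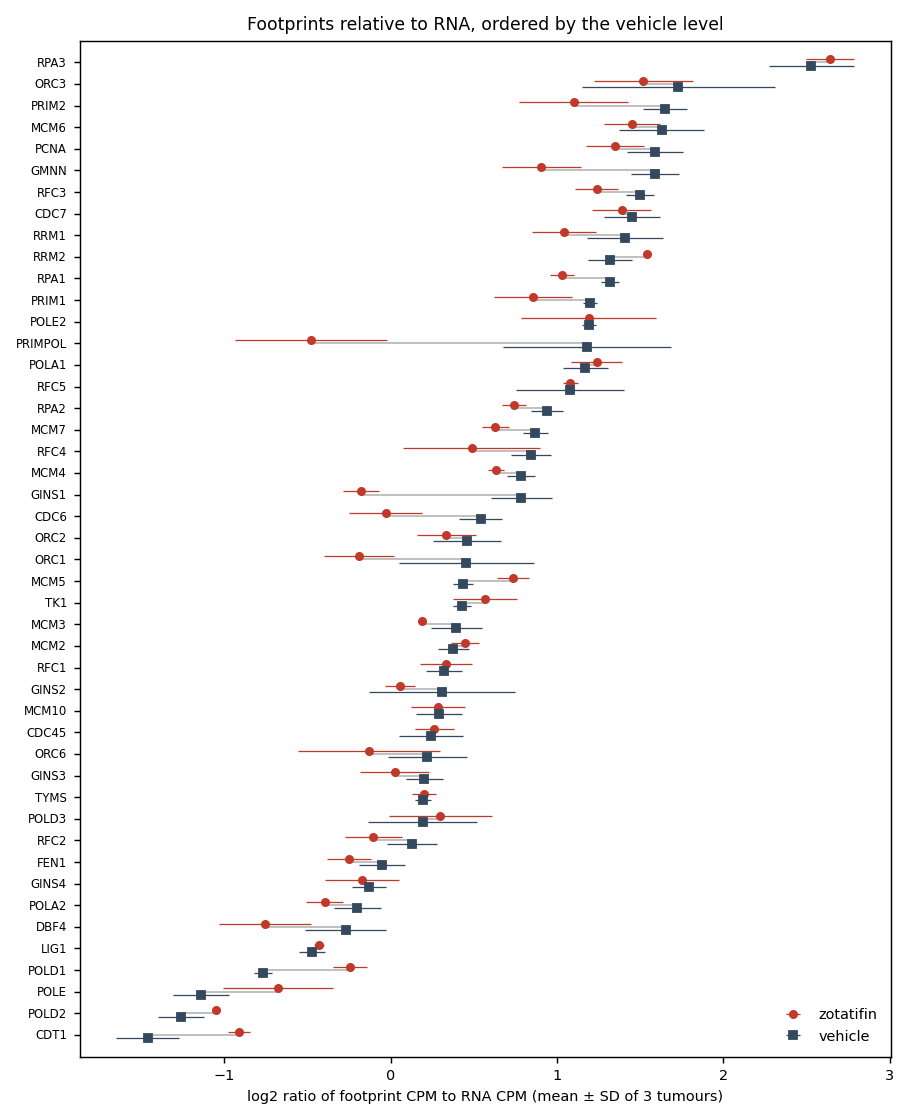
Footprint CPM over RNA CPM as a log2 ratio (x axis, mean ± SD of 3 tumours) for the 46 genes (y axis, ordered by the vehicle level), with zotatifin as red circles and vehicle as dark squares. PRIMPOL and GINS1 have the widest gaps between the treatments, and the lowest vehicle levels are those of CDT1, POLD2, POLE and POLD1.

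A list of 46 further replication genes held other helicase, fork, chromatin assembly, nucleotide and E2F genes. Over all genes tested, footprints rose in 3.22% and fell in 3.92%, RNA fell in 0.907%, and TE was called in 1.69%. The calls in the list were near these shares. Footprints rose in 1 and fell in 1 of 45 tested, RNA fell in 1 of 46, and TE was called in none of 45 (5 above and 6 below 0 at an unadjusted p under 0.05, and 0 in DESeq2, with 10 lacking an adjusted p). The medians were −0.10, 0.02 and −0.07. MCM8, a helicase of recombination repair related to the MCM ring, had 31.2, 20.9 and 42.7 CPM of footprints with zotatifin and 58.0, 61.6 and 52.1 CPM with vehicle (−0.78, adjusted p = 0.0106). CHTF18, part of an alternative clamp loader, had 39.9, 33.1 and 32.3 CPM with zotatifin and 22.6, 22.8 and 20.3 CPM with vehicle (0.67, adjusted p = 0.0362). Leaving out zotatifin library 1 or 2 or vehicle library 1 ended the MCM8 call (adjusted p of at most 0.0685), and leaving out any 1 library ended that of CHTF18 (at most 0.165). RNA of DONSON, which helps assemble the helicase, stood at 46.9, 43.1 and 41.5 CPM with zotatifin and 135.7, 74.97 and 110.4 CPM with vehicle (−1.28, adjusted p = 0.000307), also without any 1 library. With the tumour as a block, TE of DONSON rose (1.03, adjusted p = 0.00534) and that of MCM8 fell (−0.88, adjusted p = 0.00276), as did 2 others, MCMBP and RNASEH2B, while E2F7 and TFDP1 rose. Over all genes tested, 3.62% rose and 5.05% fell with that block. The footprints of DONSON overlapped between the treatments (−0.29, adjusted p = 0.525).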

How the data were processed

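Ribosome footprints and RNA were measured in 22Rv1 xenografts. For each assay the authors deposited raw counts by transcript, and symbols came from their RNA comparison. That deposited comparison gives a mean signal (normalised counts), a log2 change, a Wald score, and a p-value with and without adjustment. In the authors' TE table the treatment estimate was read as a natural log change of footprints relative to RNA: over 1566 genes with high counts a regression of it gave weights of 0.665 for log2 footprints and −0.666 for log2 RNA. Per the submitters' processing notes, cutadapt 2.3, UMI-tools, Bowtie2 2.3.5 and DESeq2 were used on hg38. The sources used here do not give the strand setting or the region counted.

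Footprints and RNA were tested apart, zotatifin against vehicle, in R 4.3.3 with edgeR 4.0.16: filterByExpr (minimum count 10, minimum total count 15), TMM scaling, and the quasi-likelihood test, dispersions being robust. For translational efficiency the assay by treatment interaction was tested over all 12 libraries. All p-values were adjusted by Benjamini-Hochberg over all genes tested. Columns carrying a code number were taken as zotatifin, after its development name, and 0 sample columns were left out. After group means were removed, the footprint and RNA libraries of 1 tumour correlated at 0.217 to 0.440 (6 pairs, 4889 genes), against −0.380 to 0.118 for other numbers. Removing group means pushes values for other numbers down when those of 1 tumour are positive, so this contrast is partly built in. A second efficiency model took the tumour as a block, since both assays came from the same lysate. Across treatments, same-numbered libraries gave −0.0945 to 0.181, which gave no pairing across treatments. Alternatives were other size factors, DESeq2 1.42.0, other count filters, the block, and each library left out. No coding lengths were used here, so levels per length and the proportions of subunits were not computed.

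The genes, the lists and the tests were chosen with earlier results of these data known. Genes were named by a rule: members called in any comparison, the highest and lowest change of each role group, and those nearest to the threshold. Other members are named to complete a group. Of the list of other replication genes, those called were named. Promoter sequences are RefSeq's, on GRCh38.p14, and for genes with several starts the first listed was used.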

Additional observations from a re-analysis of the deposited data

Results flagged for a closer look

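PRIMPOL and GINS1 were set apart because their zotatifin effect differed between footprints and RNA in the test of that difference. For PRIMPOL the difference was −1.54 ± 0.29 (log2, SE, adjusted p = 0.00428). For GINS1 it was −0.93 ± 0.19 (adjusted p = 0.00711). Groups of 3 libraries are too small for the test of single outlying samples.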

How the results depend on the processing

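The lowest footprint depth was 838135 counts, in zotatifin library 2, and the part of depth in the calls was not tested. Over all genes, footprint calls numbered 681, against 434 with DESeq2 and 185 (without vehicle library 1) to 726 with 1 library left out. RNA calls numbered 225, against 355 with DESeq2, 624 with no count filter, 140 at a mean of at least 50 counts, 527 with a replicate block and 11 to 396 with 1 library left out. TE calls numbered 160, against 819 with the tumour as a block and 56 to 132 with 1 tumour left out. Among the 46 genes, the count of footprint rises ran between 0 and 3 with 1 library left out, and that of falls was 2 with no filter. RNA rises numbered 5 with no filter, 4 with the replicate block (numbers that do not pair the treatments) and 0 to 2 with 1 library left out. With the tumour as a block 3 genes rose and 4 fell in TE, and 1 to 2 fell with 1 tumour left out. In DESeq2, TE fell in GINS1 and GMNN, while PRIMPOL, CDC7, ORC3 and POLE2 had no adjusted p. TE of GMNN was also called with no filter (adjusted p = 0.0455) and at a mean of at least 50 counts (0.0476), and footprints of PRIMPOL with no filter (0.0431). The median RNA change lay between 0.057 and 0.201 with 1 library left out.

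Values near 0 changed sign, none of them called. Footprints of RPA2 were 0.0044 at a mean of at least 50 counts. RNA was −0.0051 for CDC7 at that filter, and for RFC5 −0.018 there, −0.0070 with DESeq2 size factors and −0.0066 in DESeq2. With 1 library left out the ranges were −0.032 to 0.069 (FEN1) and −0.044 to 0.037 (RPA2) in footprints. In RNA they were −0.039 to 0.090 (CDC7), −0.035 to 0.17 (CDT1), −0.20 to 0.13 (MCM6), −0.16 to 0.15 (RFC5) and −0.12 to 0.14 (RPA3). In TE they were −0.13 to 0.047 (CDC7), −0.0071 to 0.13 (RFC1) and −0.029 to 0.22 (RPA3). The cause of these changes was not tested. Levels per coding length were not run, because no coding lengths were used here.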
